A study of Rattus norvegicus with 14 samples.

Results

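Acetylcholine receptor and end-plate genes were examined in rat soleus, a slow muscle of the lower leg, after tenotomy, the cutting of its tendon. The members were Chrna1, Chrnb1, Chrnd, Chrne, Chrng, Musk, Rapsn and Ache, and all probe sets that name only one of them were taken. On the arrays, 7 of the 8 genes had such a probe set, 9 probe sets in all among 31042 that are not array controls. Ache, the esterase that clears acetylcholine from the synapse, was not analysed here. The 14 arrays came from 12 male Sprague Dawley rats. The short-term group held 6 right solei, 2 at 1 week, 2 at 2 weeks, 1 at 3 weeks and 1 at 4 weeks after tenotomy. The long-term group held 4 right solei, 2 at 6 weeks, 1 at 16 weeks and 1 at 22 weeks. The 4 controls were left solei without immobilization, and 2 of them came from the opposite legs of the rats taken at 6 weeks. Ages were not given, no control was labelled with a week, and every control was a left leg, so side and tenotomy cannot be told apart. The question for these genes was whether a muscle that has lost its tendon while its nerve was not cut shows the transcript changes that follow denervation.

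At the neuromuscular end-plate, acetylcholine from the motor nerve opens a receptor built from alpha, beta, delta and either gamma or epsilon subunits. Agrin from the nerve acts through Lrp4 and the kinase MuSK, and rapsyn then ties the receptors into a cluster under the nerve terminal. In an innervated fibre receptor transcription is kept mostly to the nuclei beneath the synapse and epsilon replaces the fetal gamma subunit. After the nerve is cut, nuclei along the whole fibre express the alpha, beta, gamma and delta subunit genes and Musk again, through E-box sites bound by myogenin and related factors, while the histone deacetylase Hdac4 rises.

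The sequences just upstream of 4 receptor genes are printed because Chrna1, Chrnd and Chrng varied together from array to array and Chrne, the adult subunit gene, did not vary with them. They are the 250 bases before the annotated gene start on the gene's own strand, from RefSeq on GRCr8, and capitals mark the E-box CANNTG. The stretches lie at chr3:78877354-78877603 on the minus strand for Chrna1, chr9:95310066-95310315 on the plus strand for Chrnd, chr9:95325734-95325983 on the plus strand for Chrng and chr10:55834155-55834404 on the minus strand for Chrne.
Chrna1: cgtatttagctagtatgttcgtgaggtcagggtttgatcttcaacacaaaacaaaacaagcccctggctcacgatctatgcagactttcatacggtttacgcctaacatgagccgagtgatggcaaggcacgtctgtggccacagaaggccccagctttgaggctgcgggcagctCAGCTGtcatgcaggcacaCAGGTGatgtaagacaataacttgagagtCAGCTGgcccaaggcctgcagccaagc
Chrnd: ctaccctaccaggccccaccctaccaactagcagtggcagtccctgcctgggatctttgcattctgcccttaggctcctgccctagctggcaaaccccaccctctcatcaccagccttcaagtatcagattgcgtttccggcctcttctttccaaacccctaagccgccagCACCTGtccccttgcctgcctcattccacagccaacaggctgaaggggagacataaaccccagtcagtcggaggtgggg
Chrng: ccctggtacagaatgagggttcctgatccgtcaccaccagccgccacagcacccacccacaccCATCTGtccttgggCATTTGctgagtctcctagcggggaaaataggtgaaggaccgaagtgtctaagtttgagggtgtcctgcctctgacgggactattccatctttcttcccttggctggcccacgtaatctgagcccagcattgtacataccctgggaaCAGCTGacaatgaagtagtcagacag
Chrne: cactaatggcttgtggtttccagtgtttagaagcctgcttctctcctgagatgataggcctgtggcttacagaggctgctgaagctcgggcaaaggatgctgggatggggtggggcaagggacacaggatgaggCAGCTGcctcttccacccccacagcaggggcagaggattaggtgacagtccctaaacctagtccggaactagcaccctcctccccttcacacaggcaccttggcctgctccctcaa
The E-box was searched on both strands and was present in all 7 member promoters that the RefSeq table held, Ache among them and Rapsn not, and in 65.2% of 27457 rat promoters of that length. Chrna1 and Chrng had 3 matches each, and Chrnd and Chrne had 1 each. Chrnb1, which like Chrne did not vary with Chrna1, Chrnd and Chrng, also had 3. The form CAGCTG, which is one kind of E-box, was in 5 of the 7 member promoters and in 11.9% of all promoters. It was in those of Chrna1, Chrnb1, Chrne, Chrng and Musk and not in that of Chrnd. The matches thus did not separate the genes that varied together from the others. The N-box CCGGAA, a site known from synapse-specific transcription, was in 2 of the 7, Chrnd and Chrne, and in 13.4% of all promoters. A match is a stretch of letters and not a shown binding site.

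Signals are MAS5 values after quantile normalization between arrays, which gives every array the same distribution of signals. A probe set was tested when its signal exceeded 22.0 on at least 4 arrays, and 20292 probe sets, 7 of them members, did so. Signals below 9.70 were set to that floor before testing. Changes are differences of mean log2 signal, tested with limma and adjusted with Benjamini-Hochberg over all 20292 probe sets, and a probe set passed at an adjusted p under 0.05. In the short-term group 36.1% of all tested probe sets passed against control, 15.7% higher and 20.4% lower. The median tested probe set stood at -0.09 in that comparison, at -0.0034 in long-term relative to control muscle and at 0.10 between long-term and short-term muscle. Array medians in the deposited values ran from 29.8 to 49.3, and Pearson correlations between arrays ran from 0.85 to 0.94 over the tested probe sets. Slow-fibre and general fibre markers (Acta1, Ckm, Myh7, Tnnt1, Tnni1, Mb) were among the brightest probe sets on every array. Their summed signals were 49207 to 54277 in short-term, 51780 to 53343 in long-term and 51767 to 53400 in control muscles. Quantile normalization gives the brightest ranks the same signals on every array. These sums could therefore hardly differ, and they do not measure the fibre content of a sample.

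After quantile normalization with all arrays kept, no receptor subunit transcript passed as higher than control in tenotomized soleus. In the short-term group 0 of the 7 tested member probe sets rose and 1 fell, a Rapsn probe set. Under other scalings Chrne did pass as higher in that group. Its change was 0.90 with a common 75th percentile and 1.04 with a common 2% trimmed mean (limma adjusted p = 0.023 and 0.00992). Leaving out the 3-week muscle also let Chrne pass, and leaving out control replicate 4 let Chrnb1 pass at 2 weeks. The counts below are again after quantile normalization. In the long-term group 0 of 7 passed in either direction against control, where 0% of all tested probe sets passed and 2.2% had an unadjusted p under 0.05. Between long-term and short-term muscles 1 of 7 passed, the same Rapsn probe set, which was higher in the long-term group, where 19% of all probe sets were higher and 14.2% lower. These shares of the members lay near or under those of all tested probe sets. In whole muscle, fewer end-plates in a sample and less transcript per end-plate cannot be told apart. The comparisons share their arrays, the controls in the first 2 and the short-term muscles in the first and the last.

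**Figure D1:**
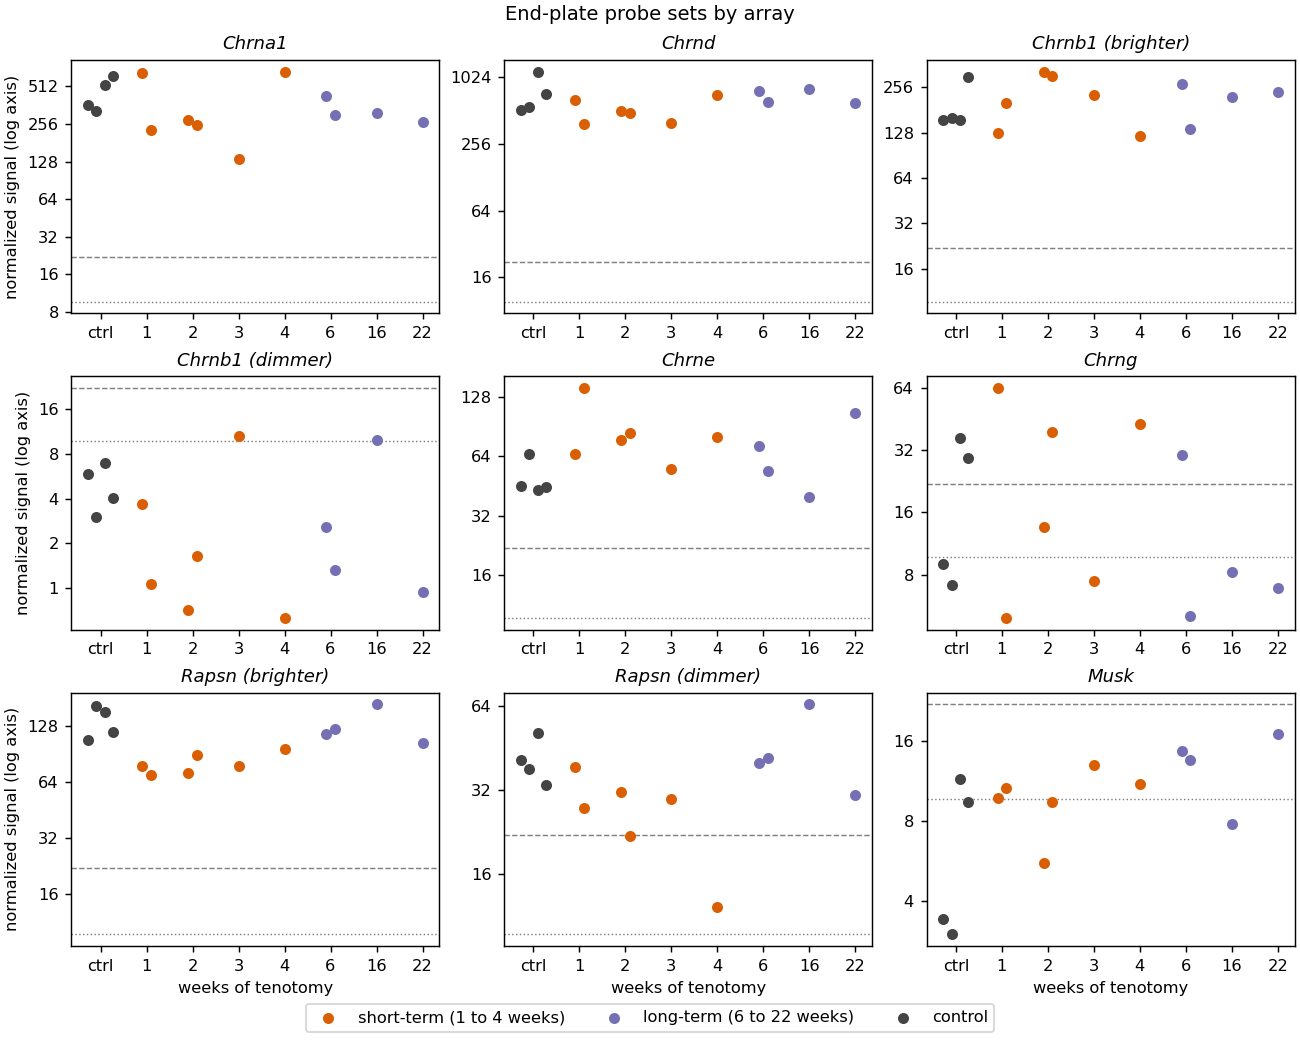
Normalized signal (log axis) of the 9 member probe sets on each of the 14 arrays, with controls at the left and tenotomized muscles by week; the dashed line is the signal of 22.0 used as the filter and the dotted line the floor of 9.70. The 6 short-term Rapsn signals of the brighter probe set, 69.9 to 95.7, lie under all 4 controls, and the receptor subunits overlap between the groups.

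Chrna1 encodes the alpha subunit, which carries most of the acetylcholine binding site. Its normalized signal was 650.4 and 229 at 1 week, 274 and 251 at 2 weeks, 135 at 3 weeks and 671 at 4 weeks. It was 425 and 302 at 6 weeks, 311 at 16 weeks and 264 at 22 weeks, against 362, 323, 524 and 622 in the 4 controls. The short-term values enclosed the whole control range, with 1 muscle at 1 week and the muscle at 4 weeks above every control and the other 4 below every control. The mean change was -0.50 on the log2 scale (SE 0.38, limma adjusted p = 0.314), a ratio of 0.707 with a 95% interval from 0.405 to 1.24. In the long-term group the change was -0.46 with an interval from -1.34 to 0.42 (limma adjusted p = 1). The week-by-week fit gave -0.19 at 1 week, -0.75 at 2 weeks and -0.30 at 6 weeks, none of which passed. Scaled to a common array median in place of quantile normalization, the short-term change became -0.89 with a limma adjusted p of 0.0435, with the median tested probe set at -0.31 under that scaling, so the call depends on the scaling while the negative sign was found under all 5 scalings.

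Chrnd encodes the delta subunit. Its signal was 631 and 385 at 1 week, 505 and 489 at 2 weeks, 395 at 3 weeks and 699.8 at 4 weeks. It was 768 and 612 at 6 weeks, 793 at 16 weeks and 594 at 22 weeks, against 511, 550.2, 1141 and 713 in controls. No short-term muscle exceeded the 2 highest controls, and 4 of the 6 lay under the lowest control, so the groups overlapped. The short-term change was -0.45 (SE 0.22, 95% interval -0.92 to 0.02, limma adjusted p = 0.12). It passed under 3 of the other 4 scalings, as -0.90 (limma adjusted p = 0.00402) with a common median, -0.87 (limma adjusted p = 0.0231) on the deposited scale and -0.65 (limma adjusted p = 0.0284) with a common 75th percentile. The long-term mean differed from control by -0.01 with an interval from -0.53 to 0.50, and from the short-term mean by 0.44 (limma adjusted p = 0.137). That last difference passed under the same 3 scalings, with limma adjusted p-values of 0.00289, 0.0318 and 0.0288.

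Chrnb1, the beta subunit gene, had 2 probe sets. The brighter one read 127 and 202 at 1 week, 325 and 305 at 2 weeks, 228 at 3 weeks and 121 at 4 weeks. It read 270.4 and 136 at 6 weeks, 221.1 at 16 weeks and 238 at 22 weeks, against 154, 159, 155 and 301 in controls. The groups overlapped, with 3 of the controls close together and the other, from the rat whose 6-week muscle read 270.4, near the highest tenotomized values. The change was 0.14 in the short-term group (SE 0.31, 95% interval -0.51 to 0.80, limma adjusted p = 0.736) and 0.19 in the long-term group (limma adjusted p = 1). At 2 weeks it was 0.78 (limma adjusted p = 0.112), and without the high control it became 1.01 (limma adjusted p = 0.0353). The dimmer probe set stayed at 10.5 or less on all 14 arrays and was not tested.

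Chrng encodes the gamma subunit of the fetal receptor, which muscle makes before its innervation matures and again after the nerve is lost. It read 63.8 and 4.94 at 1 week, 13.6 and 39.0 at 2 weeks, 7.46 at 3 weeks and 42.6 at 4 weeks. It read 30.3 and 5.05 at 6 weeks, 8.20 at 16 weeks and 6.91 at 22 weeks, against 9.03, 7.09, 36.5 and 29.2 in controls. Signals sat at the floor in 2 of 6 short-term, 3 of 4 long-term and 2 of 4 control muscles, and each group also had at least 1 array above the filter signal. The short-term change was 0.35 (SE 0.61, limma adjusted p = 0.675), a ratio of 1.27 with a 95% interval from 0.521 to 3.11, and the long-term change was -0.47 (limma adjusted p = 1). Differences inside the groups were thus wider than those between them, and muscles of the same week were not alike.

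Chrne encodes the epsilon subunit of the adult receptor. It read 65.4 and 142 at 1 week, 77.0 and 83.8 at 2 weeks, 55.3 at 3 weeks and 80.1 at 4 weeks. It read 72.4 and 53.8 at 6 weeks, 39.6 at 16 weeks and 106 at 22 weeks, against 45.0, 65.6, 43.2 and 44.5 in controls. Of the 6 short-term muscles 4 lay above the highest control, and the other 2 lay below it and above the remaining 3 controls. The short-term change was 0.72 (SE 0.29, 95% interval 0.11 to 1.33, limma adjusted p = 0.062) and missed the threshold. It passed with a common 75th percentile at 0.90 (limma adjusted p = 0.023), with a common 2% trimmed mean at 1.04 (limma adjusted p = 0.00992), and without the 3-week muscle at 0.82 (limma adjusted p = 0.0371). At 1 week it was 0.98 (limma adjusted p = 0.0605) and at 2 weeks 0.72 (limma adjusted p = 0.115). The 1-week change ran from 0.42 to 1.55 on leaving out 1 array, and at 1.55, without short-term replicate 1, it passed (limma adjusted p = 0.0317). In the long-term group it was 0.38 against control (limma adjusted p = 1) and -0.33 against the short-term group (limma adjusted p = 0.389).

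Musk, the receptor tyrosine kinase that organizes the end-plate, was dim throughout. It read 9.76 and 10.6 at 1 week, 5.54 and 9.39 at 2 weeks, 13 at 3 weeks and 11 at 4 weeks. It read 14.7 and 13.5 at 6 weeks, 7.81 at 16 weeks and 17.0 at 22 weeks, against 3.41, 2.99, 11.5 and 9.45 in controls. No array reached the filter signal of 22.0, so no fold is given. With the filter removed, Musk did not pass in any group comparison, with limma adjusted p-values of 0.835 (short-term) and 1 (long-term) relative to control, and 0.0983 between the tenotomy groups. Nor did it pass at 6 weeks relative to control (limma adjusted p = 0.477), where both tenotomized muscles read above all controls and 3 of the 4 controls were at the floor.

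Rapsn encodes rapsyn, the scaffold that binds receptors to each other and to the cytoskeleton. After quantile normalization with all arrays kept, Rapsn was the one member that passed. Its brighter probe set read 77.3 and 69.9 at 1 week, 71.1 and 89.5 at 2 weeks, 77.6 at 3 weeks and 95.7 at 4 weeks. It read 115 and 123 at 6 weeks, 167 at 16 weeks and 103 at 22 weeks, against 107, 164, 152 and 119 in controls. All 6 short-term muscles lay below all 4 controls and below all 4 long-term muscles. Among all tested probe sets 14.6% had a short-term range wholly below control, and 13.1% had a long-term range wholly above the short-term one. The short-term change was -0.74 (SE 0.18, 95% interval -1.12 to -0.36, limma adjusted p = 0.00543), or -0.65 relative to the median tested probe set, a ratio of 0.597. Rapsn kept this call in 19 of 20 alternatives, and with a common 2% trimmed mean it was -0.49 (limma adjusted p = 0.0604).

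By week the brighter Rapsn probe set fell by 0.86 on the log2 scale at 1 week (SE 0.23, limma adjusted p = 0.0283), where 18.3% of all tested probe sets passed, 8.49% higher and 9.78% lower. It fell by 0.74 at 2 weeks (limma adjusted p = 0.0326), where 31.5% passed, 13.7% higher and 17.8% lower. No other member passed at either week after quantile normalization. Under other scalings Chrne passed as higher at 1 week in 3 and at 2 weeks in 2, and Chrna1 and Chrnd passed as lower at 2 weeks with the common median and on the deposited scale. With 2 muscles a week these calls are fragile. The 1-week call was lost without either 1-week muscle (limma adjusted p = 0.108 and 0.147), without control replicate 2 (0.0588) or 3 (0.0657), and with the trimmed mean (0.0951). The 2-week call was lost without either 2-week muscle (limma adjusted p = 0.129 and 0.0593), without control replicate 2 (0.0681) or 3 (0.0719), and with a common 75th percentile (0.0732) or trimmed mean (0.152). At 6 weeks and later the signals overlapped control, with a long-term change of -0.09 and an interval from -0.51 to 0.32 (limma adjusted p = 1). Long-term muscles were 0.65 above short-term ones (SE 0.18, 95% interval 0.27 to 1.03, limma adjusted p = 0.0127), or 0.55 relative to the median tested probe set. That call was lost without the 16-week muscle, at 0.51 (limma adjusted p = 0.0532), and with the trimmed mean, at 0.38 (limma adjusted p = 0.143).

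The dimmer Rapsn probe set read 38.6 and 27.4 at 1 week, 31.4 and 21.9 at 2 weeks, 29.6 at 3 weeks and 12.1 at 4 weeks. It read 39.9 and 41.5 at 6 weeks, 64.8 at 16 weeks and 30.6 at 22 weeks, against 41.0, 37.9, 51.1 and 33.2 in controls. Both Rapsn probe sets were lower in short-term muscles, but the dimmer one overlapped control at 1 week and did not pass, at -0.67 (SE 0.30, 95% interval -1.32 to -0.03, limma adjusted p = 0.0934). It was 0.75 higher in long-term than in short-term muscles (limma adjusted p = 0.0674).

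**Figure D2:**
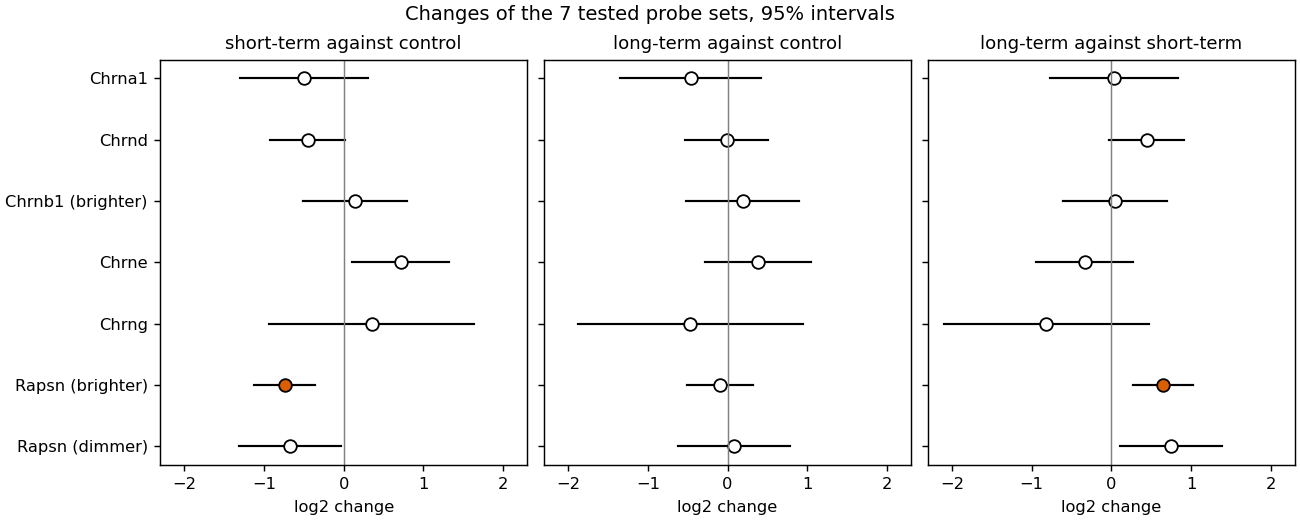
Log2 change with its 95% interval for the 7 tested member probe sets in 3 panels, short-term and long-term muscle each relative to control, then long-term relative to short-term; filled points passed at an adjusted p under 0.05. The brighter Rapsn probe set is filled at -0.74 and at 0.65, and every long-term interval against control crosses 0.

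In the 2 rats that gave both legs, the 6-week muscle could be set against the opposite soleus of the same animal. The brighter Rapsn probe set differed by -0.05 on the log2 scale in rat 61 and 0.21 in rat 62, the dimmer one by 0.26 and 0.0172, and Chrnd by 0.11 and 0.26. Chrna1 differed by -0.55 and -0.26, and Chrne by 0.70 and 0.26. The brighter Chrnb1 probe set differed by -0.15 and -0.18, and Chrng, under the floor in both legs of rat 62, by 0.05 and -0.84. Musk read 14.7 against 9.45 in rat 61 and 13.5 against 3.41 in rat 62, all below the filter signal. The 2 animals gave the same sign for Chrnd, Chrna1, Chrne, Musk, the brighter Chrnb1 and the dimmer Rapsn probe set. They gave opposite signs for Chrng and the brighter Rapsn probe set. No member passed at 6 weeks with the rat kept as a block or without it, where 0% of all probe sets passed unblocked and 3.87% had an unadjusted p under 0.05.

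The scaling between arrays moved calls of these genes. Of the probe sets that passed for short-term against control, 43.4% were higher after quantile normalization, against 25.4% with a common median, 28.9% on the deposited scale, 45.6% with a common 75th percentile and 59.6% with a common trimmed mean. For long-term against short-term the same shares were 57.3%, 77.2%, 67%, 54.6% and 39.3%. Across the 5 scalings the short-term changes of Chrna1, Chrnd and both Rapsn probe sets stayed negative and those of Chrne and Chrng positive, while Chrnb1 became -0.11 with the common median and -0.09 on the deposited scale. In short-term relative to control muscle, no scaling gave a rise of Chrna1, Chrnb1, Chrnd or Chrng that passed.

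**Figure D3:**
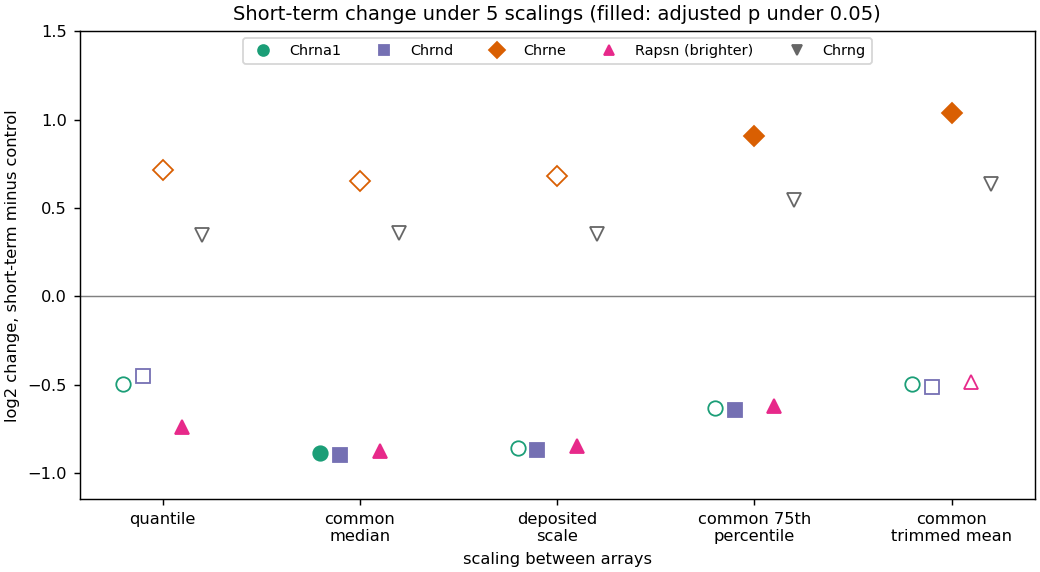
Short-term change against control (log2) of Chrna1, Chrnd, Chrne, Chrng and the brighter Rapsn probe set under 5 ways of scaling the arrays. Chrnb1 and the dimmer Rapsn probe set are not drawn. Chrna1 runs to -0.89 and Chrnd to -0.90 with the common median, while Chrne lies above 0 throughout and reaches 1.04 with the trimmed mean.

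Chrna1, Chrnd and Chrng rose and sank together between muscles of the same group. This relation was noticed in these data and then measured, on the deviation of each array from its group mean in 14 arrays from 12 rats. The permutations treated the 14 arrays as independent, although rats 61 and 62 gave 2 each. Both arrays of rat 61 lay above their group means in each of these genes, and both of rat 62 below. The permutation p-values also test a relation first seen in these same data, so they may be too low. Chrna1 and Chrnd had a Pearson r of 0.74 and a Spearman rho of 0.84 (permutation p = 0.00311 and 0.00208 with arrays permuted within groups, adjusted over 15 member pairs p = 0.0156 for both). Chrna1 and Chrng had an r of 0.82 and a rho of 0.82 (permutation p = 0.00156 and 0.00379, adjusted p = 0.0143 and 0.019). Chrnd and Chrng had an r of 0.80 and a rho of 0.85 (permutation p = 0.00191 and 0.00103, adjusted p = 0.0143 and 0.0155). Without the 2 arrays farthest from the median on the first gene, r was 0.66, 0.77 and 0.80 in the same order. The other 12 pairs, which include every pair with Chrne, Chrnb1 or the brighter Rapsn probe set, had adjusted permutation p-values for r from 0.474 to 0.748 and for rho from 0.406 to 0.70.

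The muscle at 4 weeks, 1 of the 2 muscles at 1 week and 2 of the 4 controls were high in all 3 of these genes, so the shared variation was present in control and in tenotomized muscle. Among 20291 other probe sets ranked by r with Chrna1, Chrng was at place 4 and Chrnd at place 16. Over the other 4 scalings r ranged from 0.68 to 0.81 for Chrna1 with Chrnd, from 0.83 to 0.85 for Chrna1 with Chrng and from 0.70 to 0.78 for Chrnd with Chrng. Leaving out each array in turn gave 0.68 to 0.89, 0.76 to 0.90 and 0.77 to 0.84, with a highest permutation p of 0.0201 over all these settings. Chrng lay at the floor on 7 of the 14 arrays, where its deviations have no order.

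**Figure D4:**
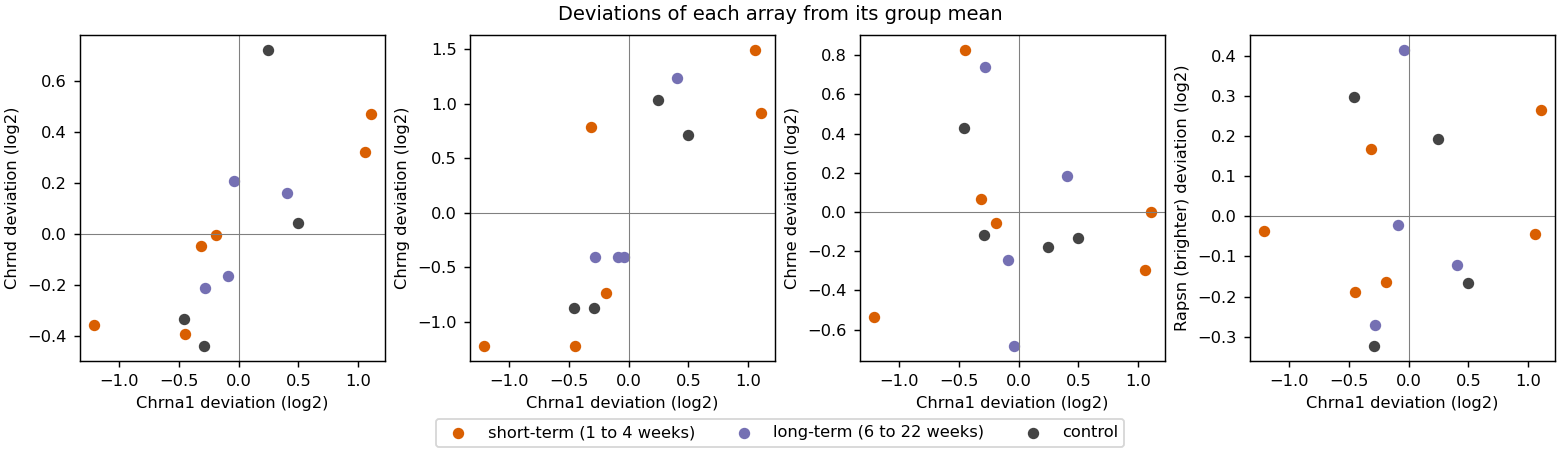
Deviation of each array from its group mean (log2) for Chrna1 on the horizontal axis against Chrnd, Chrng, Chrne and the brighter Rapsn probe set on the vertical axes, with arrays marked by group. Points follow a rising line for Chrnd (r = 0.74) and Chrng (r = 0.82).

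Over all 14 arrays, the genes with the pattern most like each member were found among 11049 tested genes by Pearson r of log2 signal. They were Rnf166 (r = 0.95) and Alad (r = 0.94) for Rapsn, Eif4ebp3 (r = 0.91) and Rbm8a (r = 0.87) for Chrne, and Pik3r4 (r = 0.89) and Pln (r = 0.86) for Chrnd. For Chrng they were Ehd4 (r = 0.80) and Spc24 (r = 0.79), for Chrna1 Stam2 (r = 0.77) and Daxx (r = 0.73), and for Chrnb1 Styxl2 (r = 0.76) and Traf3ip3 (r = 0.76). These are descriptions, and differences between the groups enter them.

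Other genes known to respond to loss of the nerve gave a mixed picture. This list and those below were chosen with earlier results of these data known, so their counts are descriptions and not independent tests. Of 25 listed genes 20 had a probe set and 18 were tested. In short-term muscle 5 rose and 1 fell, where 15.7% of all tested probe sets were higher and 20.4% lower, with a median change of 0.23 over the 18 against -0.09 over all tested probe sets, and all 6 passed under all 5 scalings and without any single array. Runx1, a transcription factor raised by denervation, had a geometric mean signal of 723 in short-term, 140.1 in long-term and 171 in control muscles, a short-term change of 2.08 (SE 0.41, limma adjusted p = 0.00158). Hdac4, which links activity to receptor transcription, stood at 83.8 in short-term, 29.6 in long-term and 21.7 in control muscles, a change of 1.75 (SE 0.42, limma adjusted p = 0.00519). The embryonic and neonatal myosins Myh3 (2.35) and Myh8 (3.04) and the calcium pump inhibitor Sln (1.67) also rose. Both myosins are also made by newly forming fibres, and all Myh8 controls lay below the filter signal, so the size of its change depends on the floor.

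Kcnn3, the calcium-activated potassium channel known from denervated fibres, fell in short-term muscle by 1.07 (SE 0.23, limma adjusted p = 0.0025). Myog, the factor through which denervation acts on the receptor promoters, had geometric means of 838 in short-term, 975 in long-term and 762 in control muscles, with a short-term change of 0.14 that did not pass (SE 0.12, limma adjusted p = 0.393). Gadd45a was at -0.04 (limma adjusted p = 0.886) and Ncam1, an adhesion molecule that spreads over denervated fibres, at 0.22 (limma adjusted p = 0.609). Dach2, the repressor between Hdac4 and Myog, was not analysed here. In the long-term group 0 of the 18 passed against control, where 0% of all tested probe sets passed. Against the short-term group Runx1 (-2.37), Ankrd1 (-1.55) and Hdac4 (-1.50) were lower, and Kcnn3 (1.28) and Arpp21 (0.49) higher. In that comparison 19% of all tested probe sets were higher and 14.2% lower. The Hdac4 call between long-term and short-term muscle was lost without long-term replicate 4 (limma adjusted p = 0.0568), and that of Arpp21 on leaving out any 1 of 5 arrays (highest limma adjusted p = 0.125).

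**Figure D5:**
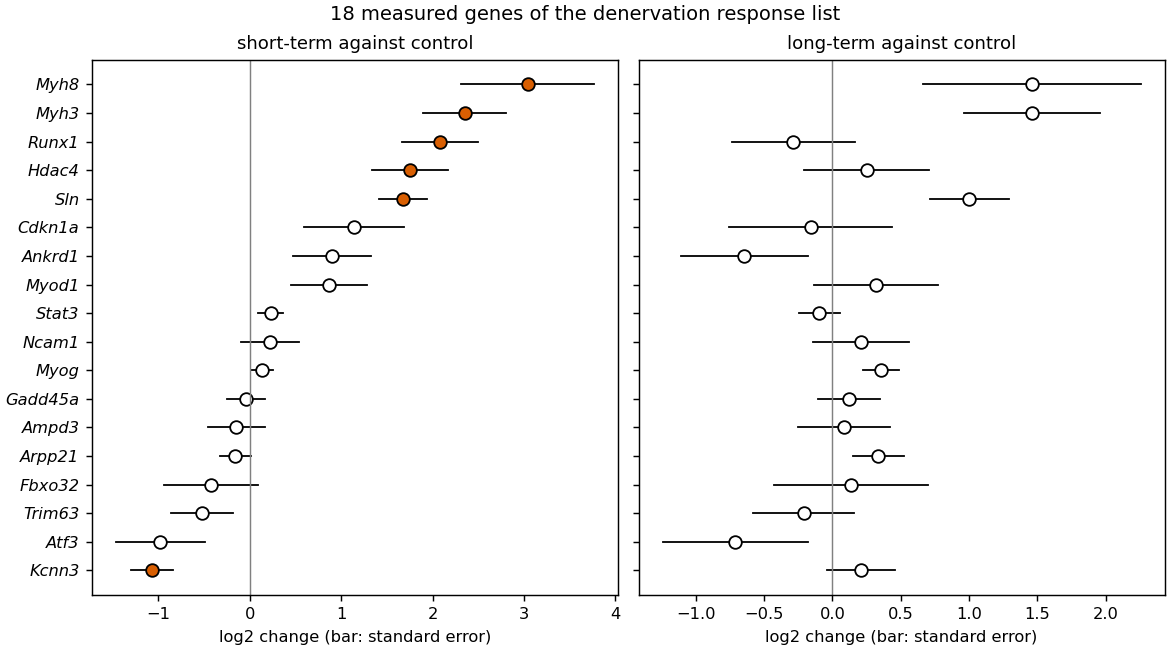
Log2 change with its SE for the 18 tested genes of the denervation list, in short-term and in long-term muscle against control. Runx1, Hdac4, Myh3, Myh8 and Sln lie well above 0 in the short-term panel and Kcnn3 below it, while Myog stays at 0.14.

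Partners of the members at the synapse passed at shares near those of all tested probe sets. Of 32 listed genes 29 had a probe set and 23 were tested, and in short-term muscle 5 rose and 4 fell, against 15.7% higher and 20.4% lower over all tested probe sets, with a median of -0.09, equal to that of all tested probe sets. Of these, 1 of the 5 rises, that of Erbb2, and all 4 falls passed under all 5 scalings. However, the fall of Dtna was lost on leaving out any 1 of 6 arrays (highest limma adjusted p = 0.0906). The rise of Apc was lost on leaving out any 1 of 5 arrays and that of Cttn any 1 of 3. Erbb2, a neuregulin receptor chain, rose by 1.42 (SE 0.33, limma adjusted p = 0.00431) with a geometric mean of 39.5 in short-term and 11.3 in control muscles. All controls lay below the filter signal, so this size depends on the floor. Agrn, the agrin gene, which muscle and Schwann cells express besides motor neurons, rose by 0.81 (SE 0.18, limma adjusted p = 0.00361), with signals of 189 to 282 in short-term and 102 to 163.3 in control muscles, and passed under 4 of the 5 scalings. Lama5, a laminin chain of the basement membrane, also rose by 0.81, and its call was lost on leaving out any 1 of 7 arrays (highest limma adjusted p = 0.131).

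Etv5, an ETS factor needed for synaptic gene expression in mice, fell by 2.20 (SE 0.41, limma adjusted p = 0.000992), with signals of 28 to 62 in short-term and 93.9 to 530 in control muscles. Crkl, an adaptor that acts downstream of MuSK and Dok7, fell by 0.88 (limma adjusted p = 0.0022), and Vezt fell by 0.79 (limma adjusted p = 0.00316). The transcripts of the proteins closest to the MuSK complex were measured without passing: Lrp4 at 0.09 (limma adjusted p = 0.779) and Dok7 at -0.22 (limma adjusted p = 0.563). Colq, the collagen tail that anchors the esterase, was at -0.25 (limma adjusted p = 0.252). In the long-term group 0 of 23 passed against control, where 0% of all tested probe sets passed. Against the short-term group 4 of the 23 were higher and 3 lower, where 19% of all tested probe sets were higher and 14.2% lower. Etv5 (1.61), Crkl (0.70), Vezt (0.69) and Dtna were higher and Lama5 (-0.997), Agrn (-0.64) and Cttn (-0.55) lower. The Dtna call was lost on leaving out any 1 of 6 arrays (highest limma adjusted p = 0.0859). Those of Lama5 and Agrn were lost without long-term replicate 4 (limma adjusted p = 0.0733 and 0.0601). Under the 5 scalings the Etv5 and Vezt calls held in all, that of Lama5 in 4, those of Crkl and Agrn in 3 and that of Cttn in 2. The Cttn call was also lost on leaving out any 1 of 5 arrays (highest limma adjusted p = 0.102). None of 11 neuronal nicotinic subunit genes with a probe set exceeded the filter on enough arrays to be tested.

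Summed signals of fibroblast, macrophage, Schwann cell and nerve, and adipocyte markers were above all controls in short-term muscles, and so moved with the lower Rapsn signal. Those of satellite cell and endothelial markers overlapped control. Over all tested probe sets 15.7% were higher and 20.4% lower in short-term muscle, the shares against which the counts of rises and falls below stand. The summed signal of 7 fibroblast markers was 24746 to 41998 in short-term, 3147 to 13636 in long-term and 7892 to 11272 in control muscles, and 6 of 7 rose. That of 8 macrophage markers was 4198 to 9912 in short-term, 1192 to 2624 in long-term and 1301 to 2531 in control muscles, and 6 of 8 rose. That of 10 Schwann cell and nerve markers was 1886 to 4777 in short-term, 1232 to 1806 in long-term and 1313 to 1525 in control muscles, and 4 of 6 tested rose, among them Gap43 by 1.71. Pmp22 alone read 1404 to 3638 in short-term and 1013 to 1140 in control muscles, a large part of the Schwann cell and nerve sum. Nefm and Prx, the other tested markers of that list, overlapped control. Gap43 and Mbp passed under all 5 scalings and Pmp22 and S100b under 4, and the Mbp call was lost on leaving out any 1 of 7 arrays and that of S100b any 1 of 6. The sum of 5 adipocyte markers was 1433 to 3864 in short-term, 144.3 to 1419 in long-term and 256 to 1314 in control muscles. Of these markers 1 of 4 tested rose, Cfd by 2.33, and Cfd was also the brightest of them. Of 2 tested satellite cell markers, Cdh15 fell by 0.70 and Myod1 did not pass, at 0.87, with summed signals of 152 to 215 in short-term, 146 to 252 in long-term and 168 to 240 in control muscles. Of 4 tested endothelial markers Tek rose by 0.59, a call held under 2 of the 5 scalings and lost without control replicate 3, and Kdr fell by 0.53. Their summed signals were 1484 to 3453 in short-term, 1639 to 2260 in long-term and 1709 to 2108 in control muscles. No marker was at 0, and Sox10, Ngfr, Gfap and Nefl were too dim to test. Of 12 muscle fibre genes 0 rose and 2 fell, Casq2 by 0.74 and Tnnt1 by 0.24, with the Tnnt1 call lost on leaving out any 1 of 4 arrays. Quantile normalization leaves the brightest of these genes little room to change. The 3' to 5' signal ratio of Gapdh, a measure of RNA integrity, ran from 1.16 to 1.61 in short-term, 1.38 to 2.78 in long-term and 1.38 to 2.78 in control muscles. That of beta-actin ran the other way, from 1.97 to 3.87 in short-term, 1.39 to 3.74 in long-term and 1.47 to 2.37 in control muscles. The part of these differences in the Rapsn, Agrn and Erbb2 changes was not tested.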

How the data were processed

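RNA of 14 rat solei was hybridised to Affymetrix arrays, 1 array a muscle. The deposited values are linear intensity values that the authors made with MAS5, per the submitters' processing notes; version, target intensity and background settings are not given in the sources used here. Of 31099 probe sets, 57 array controls were left out. Of the rest, 20826 name 1 gene, 436 several and 9780 none in GEO's platform annotation. Values were quantile-normalized on the log2 scale, floored at the pooled 25th percentile (9.70) and kept if above the pooled 40th percentile (22.0) on at least 4 arrays. limma 3.58.1 in R 4.3.3 (lmFit, eBayes with an intensity trend) was fitted to 3 group means and, in another fit, to 8 week and control means. The fits were tested on simulated data. Benjamini-Hochberg adjustment ran over 20292 probe sets.

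The precision is limited by the number of arrays. Alternatives were 4 other scalings, no floor, log2(value + 16), no filter or the 60th percentile, 1 probe set per gene, no trend, rat as a block and leaving out each array. For rats 61 and 62, with both legs measured, deviations from the group means correlated at 0.41 and 0.14, and the block correlation was 0.40 by group and 0.27 by week.

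The members and lists were chosen with earlier results of these data known. Named were all member probe sets, up to 3 list genes per direction with the largest change among those that passed, and Myog, Gadd45a, Runx1, Ncam1, Hdac4, Dach2, Lrp4, Dok7, Agrn and Colq always. Some other list genes are named only to give limits of their calls or signals. A gene's brightest probe set stood for it in the lists.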

Additional observations from a re-analysis of the deposited data

Results flagged for a closer look

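In groups of 4 or 6 muscles, a signal was looked at again where 1 array stood far from the others of its group. Of 26 such groups of member probe sets, 6 had an array apart. Chance alone gives about 1 in 20, but that rate does not apply to 4 of the 6, where every other array of the group had been set to the floor of 9.70 and any value above it stands apart. The brighter Chrnb1 probe set read 300.6 in control replicate 4, with the nearest control at 159. Chrne read 65.6 in control replicate 2, with the nearest control at 45.0. Those 4 were the dimmer Chrnb1 probe set at 10.5 in the 3-week muscle and at 9.83 in the 16-week muscle, Musk at 11.5 in control replicate 3, and Chrng at 30.3 in 1 of the 6-week muscles.

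The brighter Rapsn probe set also differed between the tenotomy groups: its change from control was higher in long-term than in short-term muscle by 0.65 on the log2 scale (limma adjusted p = 0.0127, long-term above short-term in all arrays). This is the long-term against short-term test, since both changes use the same controls.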

How the results depend on the processing

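Among recomputed changes of member probe sets, 661 kept direction and call, 23 newly passed, 14 no longer passed and 47 changed sign. The cause was not tested. With few muscles a group and dim probe sets, changes near 0 have no settled sign. Raised members in short-term against control numbered 1 with the 75th percentile and 1 with the trimmed mean, and 0 to 1 without 1 array. Over all tested probe sets 3525 of 20341 and 4487 of 20398 were higher under those scalings. Lowered members numbered 3 with the common median, 2 on the deposited scale, 2 with the 75th percentile and 0 with the trimmed mean. Over all tested probe sets the lower ones were 6882 of 20317, 4838 of 20386, 4212 of 20341 and 3045 of 20398 in that order. Raised members in long-term against short-term numbered 3, 2, 2 and 0 in the same order of scalings. Over all tested probe sets 7354 of 20317, 4067 of 20386, 4028 of 20341 and 2753 of 20398 were higher. Without 1 array, raised members in that comparison numbered 0 to 2 (0 without long-term replicate 3, 2 without short-term replicate 1). At 1 week, 1 member rose with the common median, with the 75th percentile and with the trimmed mean, and 0 fell with the trimmed mean. Over all tested probe sets 1365 of 20317, 1963 of 20341 and 2447 of 20398 were higher at 1 week under those scalings, and 1548 were lower with the trimmed mean. At 2 weeks, 1 member rose with the 75th percentile and with the trimmed mean, where 3318 of 20341 and 3960 of 20398 tested probe sets were higher. At that time 3 members fell with the common median, 3 on the deposited scale, 0 with the 75th percentile and 0 with the trimmed mean. The lower ones over all tested probe sets were 6546 of 20317, 6998 of 20386, 3581 of 20341 and 2773 of 20398 in that order. Without 1 array, 0 to 1 rose and 0 to 1 fell at each of these weeks.

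Signs changed for Chrnb1 in short-term against control (common median -0.11, deposited scale -0.0857) and in long-term against short-term (trimmed mean -0.0688, without 1 array -0.10 to 0.25), and for Chrnd in long-term against control (common median 0.042, 75th percentile 0.0044, without 1 array -0.16 to 0.23). They changed for the dimmer Rapsn probe set at 1 week (trimmed mean 0.066) and 6 weeks (deposited scale -0.0158, without 1 array -0.0775 to 0.13). Without 1 array, long-term against control ran from -0.23 to 0.0056 for the brighter and -0.12 to 0.24 for the dimmer Rapsn probe set, and Chrna1 in long-term against short-term from -0.21 to 0.26. At 1 week Chrna1 ran from -0.95 to 0.56, Chrnb1 from -0.54 to 0.14 and Chrng from -0.87 to 1.85; at 2 weeks Chrng ran from -0.39 to 1.14; at 6 weeks Chrnb1 ran from -0.43 to 0.56, Chrnd from -0.17 to 0.23 and Chrng from -0.88 to 0.77.

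With rat as a random block, Chrnd was 0.0368 in long-term against control, and at 6 weeks Chrnb1 was -0.00047 and Chrnd 0.041. With the paired legs alone and rat as a fixed term, 6-week values were -0.17 for Chrnb1, 0.18 for Chrnd, 0.0254 for Chrng and 0.0803 for Rapsn. The block changed no call of a member.

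Over all probe sets, 3180 were higher and 4139 lower in short-term against control, against 1969 higher on the deposited scale and 6882 lower with the common median. In long-term against short-term 3862 were higher, against 7354 with the common median. At 1 week 1722 were higher and 1984 lower, against 1081 higher on the deposited scale, 1068 higher without the filter and 4568 lower with the common median. Without short-term replicate 1 these were 559 and 582, without short-term replicate 2 they were 763 and 796, and without control replicate 1 the lower ones were 1271. At 2 weeks 2774 were higher and 3616 lower, against 1359 and 6998 on the deposited scale, 6546 lower with the common median, and 1190 and 1437 without short-term replicate 4. With 1 probe set per gene, which tests fewer features, short-term against control gave 2006 higher and 2476 lower, long-term against short-term 2302 higher, 1 week 997 higher, and 2 weeks 1665 higher and 2107 lower. At 6 weeks, 2 were higher and 20 lower without control replicate 4 and 8 and 1 without the filter; long-term against control gave 1 and 4 without the filter.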
